A study of Rattus norvegicus and Mus musculus with 10 samples.

Results

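Rag1, Rag2, Dntt, Vpreb1, Vpreb2, Vpreb3 and Igll1 are the genes with which a developing B cell builds and first tests its antigen receptor. They were taken by symbol, and each symbol occurred once in the gene list of both species, so the members are 7 of 32883 genes measured in rat and 7 of 31053 in mouse. Rag1 and Rag2 encode the nuclease that cuts the DNA at antibody gene segments. Dntt encodes terminal transferase, which adds nucleotides without a template where the segments are joined. Vpreb1, Vpreb2 and Igll1 encode the surrogate light chain, which pairs with a newly made heavy chain before a real light chain exists. That complex, the pre-B cell receptor, sits on dividing precursors. The textbook order, known best from mouse bone marrow, is recombinase and terminal transferase in pro-B cells, division of large pre-B cells with recombinase switched down, and a return of recombinase in small pre-B cells that join a light chain. Vpreb3 resembles the Vpreb genes in sequence but is not a part of the surrogate light chain, and its protein associates with immunoglobulin chains inside the cell. In the adult, B cell precursors are known chiefly from bone marrow. The question here is which cells of the brain's borders carry these transcripts.

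The rat samples were dura, cerebrospinal fluid (CSF), pia, choroid plexus and central nervous system (CNS) tissue of naive Lewis rats, with blood as the compartment they are set against. The labels give 25 rats for the study. The mouse samples were skull dura of C57BL/6 mice, pooled from 3 animals with EAE at its peak (experimental autoimmune encephalomyelitis, an induced inflammation of the CNS) and from 4 unimmunized naive animals. Each group was 1 pooled droplet RNA library, so no difference has a replicate check, no significance test was made, and the 95% intervals cover counting error only. The protocol states that cells of CNS, dura and choroid plexus, among other solid tissues, were sorted as CD45+CD45iv-, CD45 being a surface protein of leukocytes. Blood leukocytes came from a density gradient, and CSF was used unsorted. The rat libraries held 2272 to 4953 annotated cells with a median of 981 to 2704 UMIs (unique molecular identifiers, 1 per captured RNA molecule), and 2.57% to 3.27% of a library's barcodes occurred in another rat library, with 8 shared by the mouse pair. The EAE library held 4579 annotated cells (median 11743 UMIs, lowest 5722) and the naive library 2776 (median 4163.5 UMIs, lowest 503). EAE cells were therefore read more deeply and shallow ones were missing. A further tag in the labels gives EAE for all mouse samples, the naive one included, and the descriptions of the B cell receptor (BCR) samples name the opposite condition. Groups were taken from the titles. The deposited clusters are called Bc1 and Bc2 in rat, and BcProg, Bc and cswBc in mouse.

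Levels are given as CPM, the UMIs of a gene scaled by all UMIs of the cells concerned to a common total. Such counts come from 1 end of each RNA and do not grow with gene length. Whether it was the same end in all libraries was not examined. Where a group had no UMI, its upper limit is 3 counts. Of all annotated UMIs in the 6 rat libraries, cells of dural clusters Bc1 and Bc2 held 103 of 116 for Rag1 (88.8%), 123 of 137 for Rag2 (89.8%) and 231 of 313 for Dntt (73.8%). They held 403 of 438 for Vpreb1 (92.0%), 347 of 362 for Vpreb2 (95.9%) and 1961 of 2061 for Igll1 (95.1%). Vpreb3 had 1 UMI in 26301 rat barcodes, in a blood Bc1 cell, and whether the rat annotation of its ends has a part in that was not tested.

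Vpreb1 and Vpreb2 are close copies, so how far they can be told apart bears on their values. In the RefSeq rat annotation (build GRCr8, not the build of the counts) they are Vpreb1a and Vpreb1b on chromosome 11. Their promoter windows, 250 bases before to 50 after each annotated start, share a stretch of 176 aligned bases of which 171 are identical (97.2%). The windows are shown because the shared stretch lies nearer the annotated start of Vpreb1 than that of Vpreb2. The Vpreb2 window reads atg at its annotated start. Whether that is the start of the coding sequence and not of the RNA was not tested, so the distances depend on the annotation. Capitals mark the identical bases, and the windows lie at chr11:97630924-97631223 on the plus strand (Vpreb1) and chr11:96514355-96514654 on the minus strand (Vpreb2).
Vpreb1: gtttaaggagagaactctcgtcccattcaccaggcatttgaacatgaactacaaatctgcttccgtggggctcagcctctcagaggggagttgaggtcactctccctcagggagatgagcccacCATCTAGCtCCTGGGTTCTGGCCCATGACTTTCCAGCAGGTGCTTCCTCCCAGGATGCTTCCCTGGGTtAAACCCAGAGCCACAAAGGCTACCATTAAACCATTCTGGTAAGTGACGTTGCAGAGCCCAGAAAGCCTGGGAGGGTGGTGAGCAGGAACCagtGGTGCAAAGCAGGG
Vpreb2: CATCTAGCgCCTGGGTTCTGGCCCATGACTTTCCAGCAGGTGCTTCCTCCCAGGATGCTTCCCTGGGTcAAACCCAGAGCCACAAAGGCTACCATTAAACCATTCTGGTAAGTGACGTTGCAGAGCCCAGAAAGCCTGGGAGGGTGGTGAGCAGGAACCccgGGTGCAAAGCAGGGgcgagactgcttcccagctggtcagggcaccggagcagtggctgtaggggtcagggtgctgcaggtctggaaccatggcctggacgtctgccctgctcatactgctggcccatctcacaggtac
The E-box CAGGTG, the kind of site that E2A-type factors of the B lineage bind, was searched on both strands. Within the shared stretch it starts at position -90 of Vpreb1 and -214 of Vpreb2, counted from the annotated start. It also occurred in the windows of Rag1 (-170) and Dntt (38), so in 4 of 7 members, beside 18.7% of 27457 rat promoter windows. The palindrome CCCNNGGG, the core that EBF1 binds, occurred in 2 of 7 (Dntt and Igll1) beside 12.7%, and the octamer ATGCAAAT in 1 of 7 (Vpreb3) beside 1.64%. A match of letters is a description and not a bound site. In mouse (mm10), the last 300 bases of the longest Vpreb1 transcript hold 251 windows of 50 bases, of which 45 also occur in Vpreb2, and 30 of 251 the other way round. Reads from such windows cannot be assigned to 1 copy. Where mouse reads come from that end, the split between Vpreb1 and Vpreb2 is thus less certain than their sum. The other end of the mouse transcripts was not compared, so the split may be uncertain there as well. The rat transcripts were not compared in this way, and their split may be uncertain too.

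The mouse genes lie in pairs. Rag1 (chromosome 2, 101638282 to 101649501, minus strand) and Rag2 (101624718 to 101632529, plus strand) are 5752 bases apart in mm10. Igll1 (chromosome 16, 16860671 to 16863985) and Vpreb1 (16868403 to 16870843) are 4417 bases apart on the same strand, while Vpreb2 lies further along the chromosome. Rag1 overlaps the gene B230118H07Rik on the same strand, so mouse reads in the overlap have 2 possible sources. Overlaps of Rag2, Vpreb1 and Vpreb3 with another gene are on the opposite strand. Rat coordinates in the build of the counts were not used here.

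The first comparison asked whether B cells of the dura and of the blood that fall in the same cluster, Bc1, differ in these genes. In dural Bc1 (836 cells, median 850.5 UMIs) the recombinase was readily found, while in blood Bc1 (1226 cells, median 1482.5 UMIs) it was nearly absent. Rag1 had 65 UMIs in 59 dural cells, against 2 UMIs in 1 blood cell. That is 77.4 CPM (59.7 to 98.6) in dura and 0.997 CPM (0.121 to 3.60) in blood, a ratio of 77.6 (20.6 to 654). Rag2 had 66 UMIs in 56 dural cells, against 3 UMIs in 2 blood cells, or 78.6 and 1.50 CPM, a ratio of 52.5 (17.2 to 261). The recombinase pair was thus present in dural Bc1 at a level whose counting interval lies far from that of blood, although the dural cells were read less deeply. Dntt was at the detection limit in both, with 3 UMIs in dura and 2 in blood, and no fold is given.

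The surrogate light chain genes of Bc1 were uneven. Igll1 had 159 UMIs in 87 dural cells, against 1 UMI in 1 blood cell, which is 189 and 0.498 CPM and a ratio of 379.7 (67.2 to 15091). Vpreb1 had 31 UMIs in 30 dural cells, against 9 in 9 blood cells, or 36.9 and 4.49 CPM, a ratio of 8.23 (3.82 to 19.6). Vpreb2 had 2 UMIs in 1 dural cell and 0 in blood, and Vpreb3 had 0 in dura and 1 in blood. Of the 4 genes detected in quantity, Vpreb1 had the smallest ratio, with 9 single-UMI blood cells. Summed over the group, the recombination genes were 45.7-fold (21.6 to 116) and the surrogate light chain genes 45.9-fold (24.4 to 97.2) higher in dural than in blood Bc1. Of the 7 members 4 (Rag1, Rag2, Vpreb1 and Igll1) reached 20 UMIs over both sides, mostly through the dural UMIs, and all 4 were at least 4-fold higher in dura. Among the 7320 genes that reached 20 UMIs, 3.96% were at least 4-fold higher in dura and 5.04% at least 4-fold lower. Because the 4 passed through their dural UMIs, their count adds nothing to the ratios.

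At an equal depth of 500 UMIs per cell, drawn without replacement (thinned), 14.8% of dural Bc1 cells were expected to show at least 1 UMI of the 6 genes other than Vpreb3, against 0.413% of blood Bc1 cells. Unthinned shares were 23.7% (198 of 836) and 1.22% (15 of 1226). Droplets also catch free RNA. T and NK cells of the dura, which should lack the surrogate light chain, gave 0.510% at the thinned depth and 1.22% unthinned (13 of 1062 cells, median 1309 UMIs). The dural Bc1 share lies far above that background. T and NK cells of the blood gave 0.0463% (1.84e-05 to 0.479) thinned and 0.210% unthinned (2 of 951 cells, median 2659 UMIs), and the thinned interval overlaps that of blood Bc1 (0.136 to 0.957). Markers of other cell types moved with the comparison. Of the 15 tested, 5 were at least 4-fold higher in dural Bc1 and 1 lower. C1qa, C1qb and C1qc, macrophage genes, had 296 to 355 CPM in dura and 0 UMIs in blood, and the summed list had 2316 CPM in dura and 1157 CPM in blood. Leaving out cells with 5 or more UMIs of that list gave a log2 ratio of 5.95 for the recombination genes, against 5.51 with all cells.

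**Figure D1:**
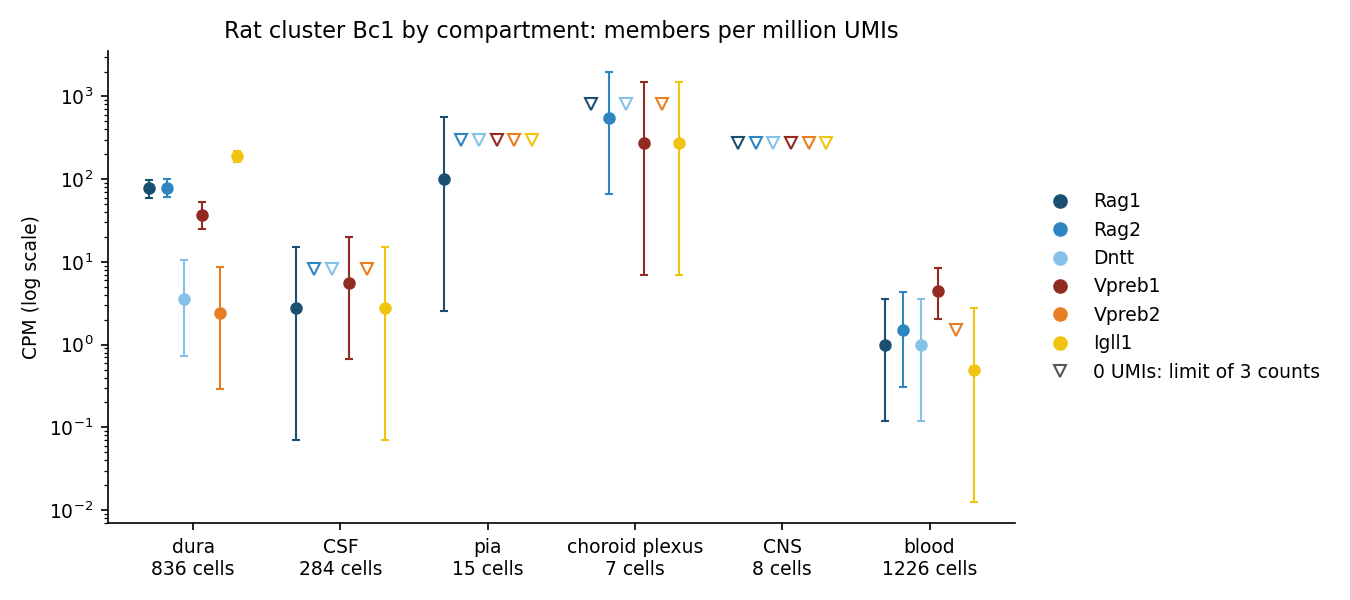
Each point is the level of 1 gene in cluster Bc1 of 1 rat compartment, in CPM on a log scale, with its 95% counting interval; open triangles mark genes with 0 UMIs at the limit of 3 counts. Dural cells carry Igll1, Rag1, Rag2 and Vpreb1 at 36.9 to 189 CPM, and blood cells carry none above 4.49 CPM.

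Other B cell precursor genes were compared in the same 2 sets of cells. Of 16 regulators of early B cells with 20 UMIs, 2 were at least 4-fold higher in dural Bc1 and 1 lower (median log2 ratio 0.31, all genes 0.03). Myb, a factor of dividing precursors, had 277 CPM in dura and 6.98 CPM in blood, and Irf4, which drives light chain opening in mouse pre-B cells, had 173 and 27.9 CPM. Irf8 had 36.9 CPM in dura and 158 CPM in blood. Of 8 end-joining genes, which repair the breaks that the recombinase makes, 1 was higher: Lig4, the ligase of that pathway, with 133 CPM in dura and 11.5 CPM in blood, a ratio of 11.6 (7.38 to 19.1). Of 7 surface genes of precursors 3 were higher, among them Cxcr4, a receptor that holds precursors in bone marrow niches, with 401 CPM in dura and 13.5 CPM in blood. Of 14 genes of mature B cells 8 were at least 4-fold lower in dura and 1 higher, with a median log2 ratio of -2.12. Ccr6 had 22.6 CPM in dura and 219 CPM in blood. Of 14 cell cycle genes 9 were higher in dura. None of 10 pre-B cell receptor signalling genes passed 4-fold in either direction.

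CSF Bc1 did not resemble dural Bc1 in these genes. Among 284 CSF cells (median 1123.5 UMIs) Rag1 had 1 UMI, Vpreb1 had 2 and Igll1 had 1, and Rag2, Dntt, Vpreb2 and Vpreb3 had 0. The surrogate light chain genes together had 8.24 CPM in CSF (3 UMIs) and 4.98 CPM in blood (10 UMIs), a ratio of 1.65 (0.292 to 6.42), and the recombination genes had 2.75 and 3.49 CPM, a ratio of 0.787 (0.0175 to 6.13). Both intervals include 1 and are wide, so a difference of several fold either way was not detectable at this depth. No member reached 20 UMIs here, where 2.32% of 6796 genes were at least 4-fold higher in CSF and 5.78% at least 4-fold lower. The other rat compartments held few Bc1 cells. The 15 pial cells had 1 Rag1 UMI, the 7 choroid plexus cells had 2 Rag2 UMIs and 1 each of Vpreb1 and Igll1, and the 8 CNS cells had none.

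In the dura the second rat cluster, Bc2 (371 cells, median 2199 UMIs), held most of the surrogate light chain and nearly all of the terminal transferase of the 2 clusters. The deposited clusters may rest on these genes too, so Bc2 against Bc1 is a description. Igll1 had 1802 UMIs in 228 Bc2 cells, or 2001 CPM, against 189 CPM in Bc1. Vpreb1 had 372 UMIs in 134 Bc2 cells, or 413 CPM, against 36.9 CPM in Bc1. Vpreb2 had 345 UMIs in 88 Bc2 cells, or 383 CPM, against 2.38 CPM in Bc1. Dntt had 228 UMIs in 73 Bc2 cells, or 253 CPM, against 3.57 CPM in Bc1. The recombinase went the other way or was level. Rag1 had 38 UMIs in 33 Bc2 cells, 42.2 CPM (29.9 to 57.9), against 77.4 CPM in Bc1, a ratio of 0.545 (0.356 to 0.826). Rag2 had 57 UMIs in 47 Bc2 cells, 63.3 CPM, against 78.6 CPM in Bc1, a ratio of 0.806 (0.555 to 1.17) whose interval includes 1. Dntt and the surrogate light chain genes thus marked Bc2, and Rag1 and Rag2 ran through both clusters. Among 6316 genes 5.26% were at least 4-fold higher and 1.8% at least 4-fold lower in Bc2. The summed recombination genes were 2.25-fold (1.83 to 2.77) higher in Bc2, a sum that Dntt sets, since neither Rag gene was higher.

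Bc2 was also the dividing cluster: 305 of its 371 cells (82.2%) had 2 or more UMIs of the cell cycle genes, against 94 of 836 (11.2%) in Bc1, a minimum that deeper cells reach more easily. Of 19 cell cycle genes with 20 UMIs, 16 were at least 4-fold higher in Bc2. Of 10 genes of mature B cells 5 were at least 4-fold lower, among them Ms4a1 (CD20), with 2.22 CPM in Bc2 and 132 CPM in Bc1. Lef1, a factor of early B cells, had 211 CPM in Bc2 and 35.7 CPM in Bc1, and Erg, a factor of stem cells and pro-B cells, had 47.7 CPM in Bc2 and 0 UMIs in Bc1. Lig4 had 45.5 CPM in Bc2 and 133 CPM in Bc1.

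Splitting Bc2 by the cell cycle genes, none of which is a member, separated cells with high levels of Dntt and the surrogate light chain from the rest. The 66 cells with fewer than 2 cell cycle UMIs (median 1196.5 UMIs) were shallower than the 305 cycling cells (median 2436 UMIs), yet held more UMIs of most members per cell. Dntt had 82 UMIs in the cycling cells and 146 in the other 66, which is 100.4 and 1738 CPM, 17.3-fold (13.1 to 23.0) lower in cycling cells. Per cell that is 0.269 UMIs in cycling cells and 2.21 in the others. Vpreb2 had 154 CPM in cycling cells and 2606 CPM in the others, 16.9-fold (13.5 to 21.2) lower in cycling cells. Vpreb1 had 230.2 CPM in cycling cells and 2189.8 CPM in the others, 9.51-fold (7.72 to 11.7) lower. Igll1 was the least uneven of the 3, with 1483 CPM in cycling cells and 7034 CPM in the others, 4.74-fold (4.29 to 5.24) lower, or 3.97 and 8.95 UMIs per cell. So the surrogate light chain transcripts were present in dividing cells, with a larger share of the RNA in the few Bc2 cells below that minimum.

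The recombinase pair did not split alike. Rag1 had 18 UMIs in the 305 cycling Bc2 cells and 20 in the other 66, which is 22.0 and 238 CPM, 10.8-fold (5.42 to 21.7) lower in cycling cells. Rag2 had 49 UMIs in the cycling cells and 8 in the others, which is 60.0 and 95.2 CPM, with a ratio of 0.630 (0.296 to 1.54) whose interval includes 1. In Bc1 the pair went in opposite directions. Rag1 had 23.3 CPM in 94 cycling and 91.3 CPM in 742 other cells, 3.92-fold (1.46 to 14.9) lower in cycling cells. Rag2 had 134 CPM in cycling and 64.3 CPM in other cells, 2.08-fold (1.20 to 3.53) higher in cycling cells. In both clusters the intervals of the Rag1 and Rag2 ratios do not overlap. The 2 transcripts, which lie side by side in the genome, therefore had different shares in dividing cells of the rat dura. The Rag1 counts in cycling cells are small (18 and 4 UMIs), and whether alignment or annotation of the rat genes has a part in this was not tested.

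Dividing Bc1 cells also held more surrogate light chain than the other Bc1 cells. Igll1 had 378 CPM in the 94 cycling cells and 141 CPM in the 742 others, 2.69-fold (1.93 to 3.73) higher in cycling cells. Vpreb1 had 64.0 and 29.9 CPM, a ratio of 2.14 (0.926 to 4.68) whose interval includes 1. Bc1 and Bc2 thus differ in direction: cycling cells had the higher surrogate light chain level within Bc1 and the lower one within Bc2. The 76 Bc1 cells with a UMI of Ms4a1, a gene of maturing B cells, had 1 UMI of the recombination genes, against 133 in the other 760. That is 13.5-fold (2.37 to 536) lower in the Ms4a1 cells, and the surrogate light chain genes were 3.14-fold (1.41 to 8.66) lower. Il7r, the receptor for the growth factor of precursors in mouse, was seen in 19 Bc2 cells. These had 2.06-fold (1.32 to 3.08) more Dntt and 1.85-fold (1.63 to 2.10) more surrogate light chain in CPM than the other 352.

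**Figure D2:**
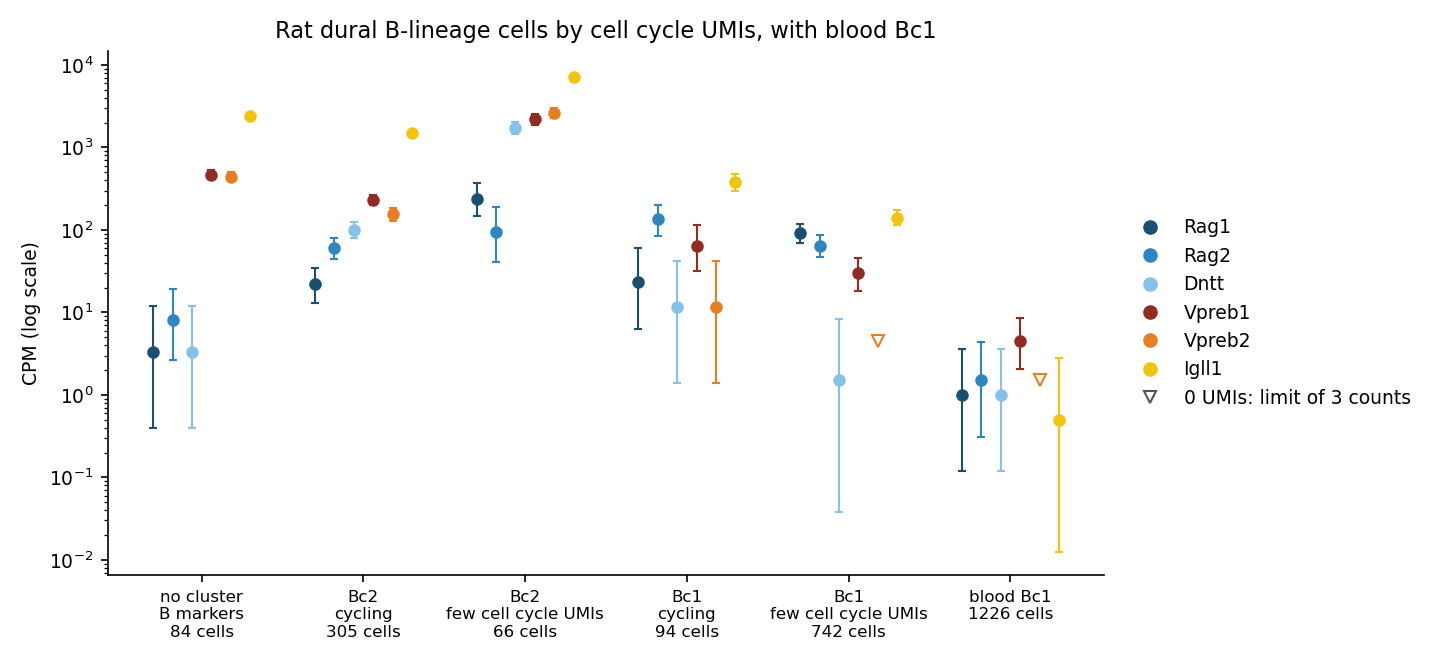
Level of 6 genes in CPM (log scale, 95% counting intervals, open triangles at the limit of 3 counts for 0 UMIs) in rat dural B-lineage cells divided by cluster and by cell cycle UMIs, with blood Bc1 on the right. The 66 Bc2 cells with few cell cycle UMIs lead in Dntt, Vpreb1, Vpreb2 and Igll1 (1738 to 7034 CPM), and Dntt is near 0 in the dividing cells that were given no cluster.

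Other B lineage genes also differed between these cells. Erg had 23.3 CPM in cycling and 286 CPM in other Bc2 cells, and 0 UMIs in dural Bc1. Lef1 had 159 and 714 CPM in the same Bc2 groups. Ighm, the heavy chain gene, had 3145 CPM in cycling Bc2 cells, 2261 CPM in other Bc2 cells, 4981 CPM in cycling Bc1 cells and 6494 CPM in other Bc1 cells, with 11508 CPM in blood Bc1. Lig4 had 34.3 CPM in cycling and 155 CPM in other Bc2 cells, and 75.6 CPM in cycling and 148 CPM in other Bc1 cells. Ms4a1 had 0 UMIs in non-cycling Bc2 cells, 156 CPM in non-cycling Bc1 cells and 720.2 CPM in blood Bc1. These genes were chosen after their values were seen and are given as a description.

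The members were found in the same cells to very different extents. In dural Bc2, of 73 cells with Dntt, 72 (98.6%) had Igll1, 69 (94.5%) had Vpreb1 and 58 (79.5%) had Vpreb2, where 61.5%, 36.1% and 23.7% of all Bc2 cells did. All 88 cells with Vpreb2 had Igll1, and 79 (89.8%) had Vpreb1. The Dntt cells were shallower (median 1299 UMIs) than Bc2 as a whole (median 2199). Of 33 cells with Rag1, 18 (54.5%, 36.4 to 71.9) had Dntt, while of 47 cells with Rag2 only 8 (17.0%, 7.65 to 30.8) did, close to the 19.7% of all Bc2 cells. The 2 intervals do not overlap, but the 2 sets share 9 cells of 1 library and are not independent. Rag1 and Dntt both had higher levels in the Bc2 cells with few cell cycle UMIs, and the part of that here was not tested. Both Rag genes were seen together in 9 Bc2 cells, 27.3% of those with Rag1 and 19.1% of those with Rag2. In Bc1, of 59 cells with Rag1, 3 (5.08%, 1.06 to 14.1) had Igll1, and of 56 cells with Rag2, 11 (19.6%, 10.2 to 32.4) did, where 10.4% of all Bc1 cells did. Those 2 intervals overlap. Rag2 was in 8 of the 59 cells with Rag1 (13.6%), where 6.70% of all Bc1 cells had it. Of 30 cells with Vpreb1, 12 had Igll1. Most Bc1 cells with any of the 6 genes had only 1 of them (167 of 198), while of 265 such Bc2 cells 110 had 1, 58 had 2, 33 had 3, 47 had 4, 12 had 5 and 5 had all 6. The deeper Bc2 cells (median 2199 UMIs, against 850.5 in Bc1) reach such counts more easily.

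**Figure D3:**
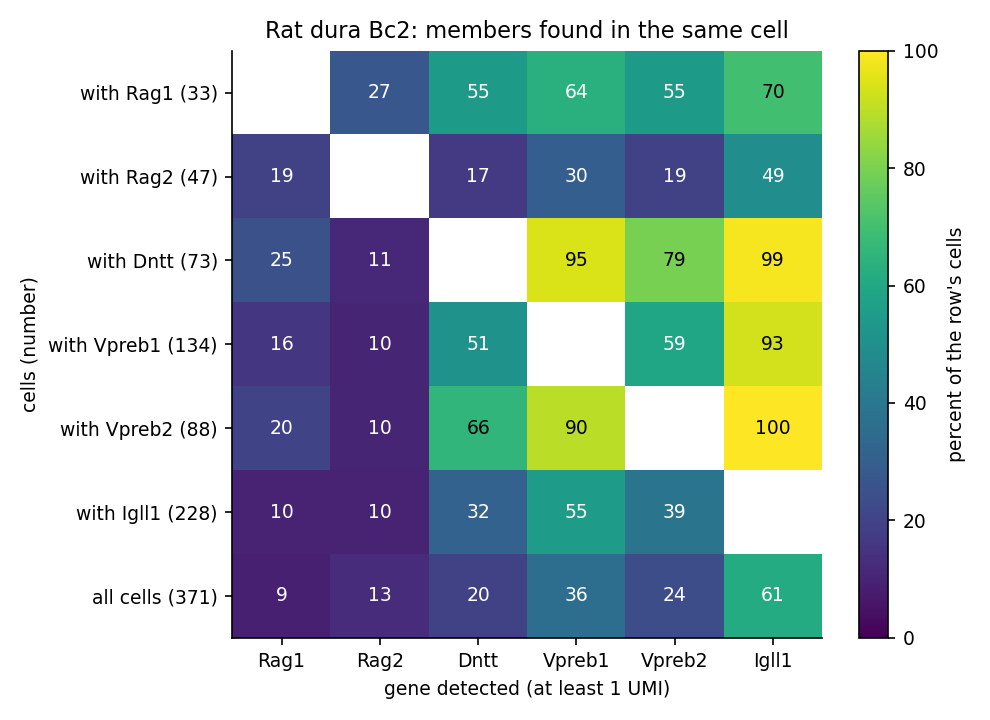
Each row takes the cells of rat dural Bc2 in which 1 gene was detected (number in brackets), and each field gives the percent of them with at least 1 UMI of the column's gene; the last row gives all 371 cells. Cells with Dntt or Vpreb2 nearly all have Igll1, and cells with Rag2 are no richer in Dntt (17%) than all cells (20%).

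The ratio of the 2 Vpreb copies shifted between the same groups of cells. Vpreb1 and Vpreb2 had 188 and 126 UMIs in cycling Bc2 cells, and 184 and 219 in the other Bc2 cells. In Bc1 they had 31 and 2. Whether the rat transcripts share sequence near their 3' ends, as the mouse ones do, was not examined, so the level of each copy may be uncertain. The part of that in the shift was not tested.

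Some dural barcodes had no deposited cluster but held many of these transcripts. Of 241 such barcodes 84 had 2 or more UMIs of the B cell markers Cd79a, Cd79b, Ms4a1 and Ebf1, with a median of 6556 UMIs, and 77 of the 84 were cycling. Igll1 had 1475 UMIs in 74 of the 84, 17.6 UMIs per cell and 2417 CPM. Vpreb1 had 285 UMIs and Vpreb2 270, or 467 and 442 CPM. The summed surrogate light chain level was 1.19-fold (1.12 to 1.26) that of Bc2. The recombination genes were nearly absent: Rag1 had 2 UMIs, Rag2 had 5 and Dntt had 2, a sum 24.3-fold (12.7 to 53.7) lower than in Bc2. Among cycling cells alone, 77 barcodes against 305 Bc2 cells, the surrogate light chain level was 1.82-fold (1.70 to 1.95) higher and the recombination genes 12.1-fold (6.21 to 27.0) lower in the barcodes without a cluster. The distance in recombination genes was thus smaller and that in the surrogate light chain larger than against the whole of Bc2. These barcodes had more UMIs than those of either cluster, so their low recombination counts were found at the greater depth. Cells with high surrogate light chain and low recombinase were thus found outside the deposited clusters, and why they have no cluster was not tested. No doublet caller was run, and other-type markers summed to 1457 CPM in them, against 1580 CPM in Bc2.

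Outside the dura, Bc2 cells with members were few. Cluster Bc2 had 36 cells in the CNS and 26 in the pia, of which 0 carried 2 B cell marker UMIs, and the only member UMI in them was 1 of Vpreb2 in the CNS. In the CSF 1 of 6 Bc2 cells and in the choroid plexus 1 of 10 carried B cell markers, and in each compartment a single cell had 2 Igll1, 1 Vpreb1 and 1 Vpreb2 UMI. Of 5 blood Bc2 cells, 1 (3587 UMIs) had 19 Igll1, 7 Dntt, 5 Vpreb2, 1 Vpreb1 and 1 Rag2 UMI with 13 B cell marker UMIs. Another (6216 UMIs) had 6 Dntt UMIs, 1 Vpreb2 UMI and no B cell marker, with 77 UMIs of other cell types. In the CNS, 1 barcode without a cluster (9370 UMIs) had 18 Igll1, 2 Vpreb1 and 1 Vpreb2 UMI with 12 B cell marker and 25 cell cycle UMIs. Members in clusters of other cell types were sparse. Igll1 had 22 UMIs in 9 of 106 dural cells of cluster micro, of which 14 carried B cell markers, and 21 UMIs in 12 of 1033 cells of dural myeloid 2. Dntt had 25 UMIs in 24 of 853 cells of blood myeloid3 (11.1 CPM), above blood Bc1 (0.997 CPM), with no cell above 2 UMIs.

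In the mouse dura, naive cluster BcProg (92 cells, median 2936.5 UMIs, 88 with B cell markers) carried Vpreb3 and Rag1. Vpreb3 had 875 UMIs in 85 of 92 cells (92.4%), or 1882 CPM (1759 to 2011). Rag1 had 44 UMIs in 28 cells (30.4%), or 94.6 CPM, and Rag2 had 12 in 10 cells, or 25.8 CPM. The surrogate light chain was in few cells: Igll1 had 59 UMIs in 6 cells, Vpreb1 had 37 in 6 and Vpreb2 had 1 in 1. Dntt had 4 UMIs, all in 1 cell. So most naive BcProg cells had Vpreb3, fewer had Rag1, and 8 of 92 had any surrogate light chain gene. Igll1 was in 0 of the 28 cells with Rag1 and in 3 of the 10 with Rag2. Naive BcProg held 89.8% of all annotated mouse Rag1 UMIs (44 of 49) and 58.6% of those of Vpreb3 (875 of 1492).

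Within naive BcProg the surrogate light chain lay in the cycling cells. All 59 Igll1 UMIs and 36 of 37 Vpreb1 UMIs were in the 25 cycling cells (median 11023 UMIs), and the 67 others (median 2417 UMIs) had 0 and 1. Igll1 was at least 12.5-fold higher in cycling cells. Most of this lay in the cycling cells with 24531 and 12182 UMIs. They held 20 and 33 of the 59 Igll1 UMIs, and 14 and 17 of the 37 Vpreb1 UMIs. Rag1 had 42.2 CPM in cycling and 177 CPM in other cells, 4.20-fold (2.10 to 8.95) lower in cycling cells, and Vpreb3 had 1389 and 2657 CPM, 1.91-fold (1.67 to 2.19) lower. Rag2 had 6 UMIs on each side, a ratio of 0.635 (0.170 to 2.38). The intervals of the Rag1 and Rag2 ratios overlap. Cycling cells were also the deep ones, and what depth has to do with the split was not tested.

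In EAE most cells of the cluster lacked B cell markers. Of 74 EAE BcProg cells (median 23693 UMIs), all with 2 or more cell cycle UMIs, 7 carried B cell markers, against 88 of 92 in naive dura. S100a8, a neutrophil gene, had 3009.7 CPM in EAE and 53.8 CPM in naive BcProg. Of 17 tested markers of other cell types 10 were at least 4-fold higher in EAE and 2 lower. S100a8 was not particular to this cluster, with 5558 CPM in EAE Bc, where all 25 cells carried B cell markers. Lyz2, a monocyte gene, had 14697 CPM in EAE BcProg, 1372 CPM in naive BcProg and 686 CPM in EAE Bc. The label BcProg therefore goes against the markers of 67 EAE cells, so the ratios of the whole cluster compare cells of different kinds. Rag1 and Rag2 had 0 UMIs in EAE, at least 56.3-fold and at least 15.3-fold lower than in naive BcProg. Vpreb3 had 184 UMIs in EAE (103 CPM), 18.2-fold (15.5 to 21.5) lower, and Igll1 had 37 UMIs (20.7 CPM), 6.12-fold (3.99 to 9.49) lower. Vpreb1 had 65 UMIs (36.4 CPM), 2.18-fold (1.42 to 3.32) lower. Dntt had 45 UMIs in EAE (25.2 CPM) and 4 in naive (8.60 CPM), a ratio of 2.93 (1.07 to 11.2). Of the members, 5 reached 20 UMIs, and Rag1, Vpreb3 and Igll1 of these were at least 4-fold lower, where 6.07% of 7309 genes were. Rag1 reached 20 UMIs through its 44 naive UMIs alone, so its place in that count adds nothing to its ratio. At least 4-fold higher were 5.72% of genes and none of the members. Of 18 early B cell regulators 13 were at least 4-fold lower, among them Ebf1 with 54.9 CPM in EAE and 2301 CPM in naive.

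The 7 EAE BcProg cells with at least 2 B cell marker UMIs held nearly all of the cluster's member transcripts. They had 65 of 65 Vpreb1, 37 of 37 Igll1, 42 of 45 Dntt and 181 of 184 Vpreb3 UMIs. Of the 7, 2 deep cells (63402 UMIs together) had fewer than 10 marker UMIs and no member, so all of these UMIs were in the other 5. At a minimum of 10 marker UMIs, chosen after the data were seen, 5 EAE and 87 naive BcProg cells remained. In these, Vpreb1 had 789 CPM in EAE and 96.8 CPM in naive cells, a ratio of 8.15 (5.36 to 12.6). Igll1 had 449 CPM in EAE and 154 CPM in naive cells, a ratio of 2.91 (1.87 to 4.46). Few cells set both ratios. Of the 5 EAE cells, 2 held 26 and 28 of the 65 Vpreb1 UMIs, and 18 and 15 of the 37 Igll1 UMIs. Of the 87 naive cells, 2 held 14 and 17 of the 37 Vpreb1 UMIs, and 20 and 33 of the 59 Igll1 UMIs. The intervals do not cover this spread between cells. Dntt had 509.6 CPM in EAE and 10.5 CPM in naive cells, where its 4 UMIs lay in 1 cell. Vpreb3 had 2196 CPM in EAE and 2289 CPM in naive cells, a ratio of 0.960 (0.813 to 1.13) whose interval includes 1. The lower level of Vpreb1, Igll1 and Vpreb3 in the whole EAE cluster was thus not seen among cells with clear B cell markers. Rag1 had 0 UMIs in the 5 EAE cells, where the limit of 3 counts is 36.4 CPM, against 115 CPM in the 87 naive cells, at least 3.16-fold lower. These 5 cells come from 1 library, and all had 2 or more cell cycle UMIs, against 25 of the 92 naive BcProg cells. In naive BcProg those 25 held 36 of 37 Vpreb1 and all 59 Igll1 UMIs, and had a lower Rag1 level than the other 67. The part of the cell cycle in these EAE to naive ratios was not tested.

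The sums over the members depended on which cells were taken. For the recombination genes the log2 ratio of EAE to naive was -2.35 over the whole cluster, 0.95 over cells with at least 2 marker UMIs and 1.70 over those with at least 10, the positive values all through Dntt. For the surrogate light chain genes it was -1.76, 1.65 and 2.40 in the same order, and over the whole cluster it was 0.27 with each cell weighted equally and 0.27 with thinned cells. Every Vpreb1 and Igll1 UMI of EAE BcProg, and every Dntt UMI, was in its 15 cells with Il7r. The 2 of the 5 cells that held Dntt (31 and 11 UMIs) also had 28 and 26 Vpreb1, 15 and 18 Igll1 and 43 and 35 Vpreb3 UMIs, and 104 and 79 cell cycle UMIs. EAE cells were deeper, and 19 of the 87 naive cells had at least 5722 UMIs, the lowest total of any annotated EAE cell. In those 19, Rag1 had 7 UMIs in 5 cells (33.7 CPM, 13.5 to 69.4), which is under the limit of 36.4 CPM in the 5 EAE cells, so at that depth a difference in Rag1 was not detectable. In the 19 naive cells Vpreb1 had 173 CPM, Igll1 284 CPM and Vpreb3 1948 CPM. The ratios of the 5 EAE cells to these were 4.56 (2.99 to 7.05) for Vpreb1, 1.58 (1.02 to 2.43) for Igll1 and 1.13 (0.941 to 1.35) for Vpreb3. The surrogate light chain genes together were 2.89-fold (2.18 to 3.84) higher in the 5 EAE cells. The 2 naive cells with most of the Vpreb1 and Igll1 UMIs are among the 19, so the ratios of these genes rest on few cells here too. All 37 Igll1 UMIs of these EAE cells lay in 3 of the 5. Here too the part of the cell cycle was not tested.

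**Figure D4:**
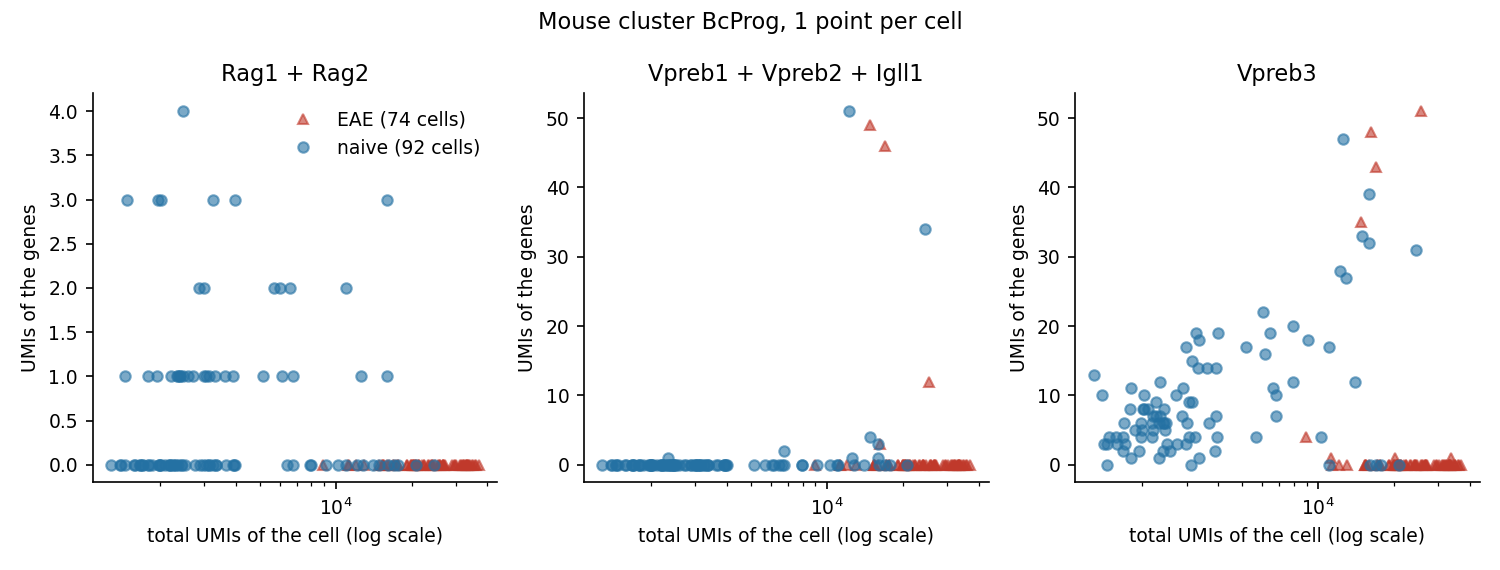
Each point is 1 cell of mouse cluster BcProg, with its total UMIs (log scale) against its UMIs of the recombinase pair, of the surrogate light chain genes and of Vpreb3; triangles are EAE cells and circles naive cells. Naive cells carry Rag and Vpreb3 UMIs at low totals, and most of the deeper EAE cells have 0 of all genes.

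The other mouse B cell clusters had Vpreb3 with little else. EAE Bc (25 cells, median 8395 UMIs) had 92 Vpreb3 UMIs in 16 cells (375 CPM), against 173 UMIs in 39 of 74 naive Bc cells (681 CPM), 1.81-fold (1.40 to 2.36) lower in EAE. A single EAE Bc cell (6888 UMIs) held 54 of the 92 UMIs. Without it the other 24 cells had 160 CPM of Vpreb3, and the log2 ratio was -2.09 in place of -0.86. With only naive cells at or above the lowest EAE total it was -0.095. The same cell held every other member UMI of EAE Bc, 46 Vpreb1, 15 Igll1, 7 Vpreb2, 2 Dntt, 1 Rag1 and 1 Rag2, with 55 B cell marker UMIs. The 74 naive Bc cells had 0 UMIs of these 6 genes. Of 3074 genes 2.96% were at least 4-fold higher and 3.03% at least 4-fold lower in EAE Bc, and all 10 tested markers of other cell types were among the higher ones, S100a8 with 5558 CPM in EAE and 47.2 CPM in naive. Their part in the ratios was not tested. Within naive Bc, Vpreb3 was 5.77-fold (2.60 to 15.9) higher in the 60 cells with Ms4a1 than in the 14 without. Cluster cswBc had Vpreb3 alone, with 36 UMIs in 6 of 11 EAE cells and 10 UMIs in 6 of 13 naive cells. In naive dura 1 cell of cluster ILC (9429 UMIs) had 15 Vpreb1, 7 Igll1, 23 Vpreb3 and 2 Dntt UMIs with 34 B cell marker UMIs.

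The table of assembled BCR chains could be joined to the EAE library, where 877 of 1185 of its barcodes occurred, and not to the naive one, where 0 of 159 did. Of the 7 EAE BcProg cells with B cell markers, 4 had a productive chain, and those 4 held all 42 of their Dntt UMIs, 57 of 65 Vpreb1 and 33 of 37 Igll1 UMIs. All 4 had both a heavy and a light chain on record. The 2 of them with Dntt had 0 and 1 UMIs of the light chain constant genes in the expression library. The 67 BcProg cells with fewer than 2 marker UMIs had 139 such UMIs in 57 cells. Whether the recorded light chains of the 2 cells are stray was not tested. In EAE Bc 18 of 25 cells had a chain and none of the 6 genes other than Vpreb3, and the single member-rich cell was among the 7 without. T and NK cells had a chain on record in 121 of 727 (16.6%), mostly light chains, which sets the background of stray chains.

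Most mouse Dntt was outside the B lineage, in plasmacytoid dendritic cells (pDC), interferon-producing cells that in mouse can carry traces of antibody gene rearrangement. This comparison was added after the data were seen. Cluster pDC held 284 of 361 annotated Dntt UMIs in EAE (78.7%) and 38 of 46 in naive dura (82.6%). Dntt was in 92 of 126 EAE pDC (73.0%) and 21 of 48 naive pDC (43.8%). These are unthinned shares, at a median of 9453 UMIs in EAE and 7364 UMIs in naive pDC. The Dntt level was 222 CPM in EAE and 106 CPM in naive, a ratio of 2.10 (1.49 to 3.02). Every processing alternative that gave a value had a higher Dntt level in EAE pDC, and the ratio is under the 4-fold that 2.57% of 6605 genes passed upward and 0.56% downward. Rag1, Rag2, Vpreb2 and Igll1 had 0 UMIs in pDC of both conditions, and Vpreb1 had 1 in each. Siglech, a marker of pDC, had 1361 CPM in EAE and 1771 CPM in naive pDC. S100a8 had 5130 CPM in EAE and 50.2 CPM in naive pDC, and 13 of 18 tested markers of other cell types were at least 4-fold higher in EAE. A productive chain was on record for 45 of 126 EAE pDC (35.7%), with Dntt in 38 of the 45 and in 54 of the 81 without. Of the 45, 42 had a light chain and 13 a heavy chain, beside 119 and 21 of the 121 T and NK cells with a chain. How many of the pDC chains are stray was not tested. Of 421 EAE barcodes without a cluster, 92 had 2 or more Siglech UMIs, and 74 of these had Dntt. In the rat Dntt had 1 UMI in 91 pDC.

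**Figure D5:**
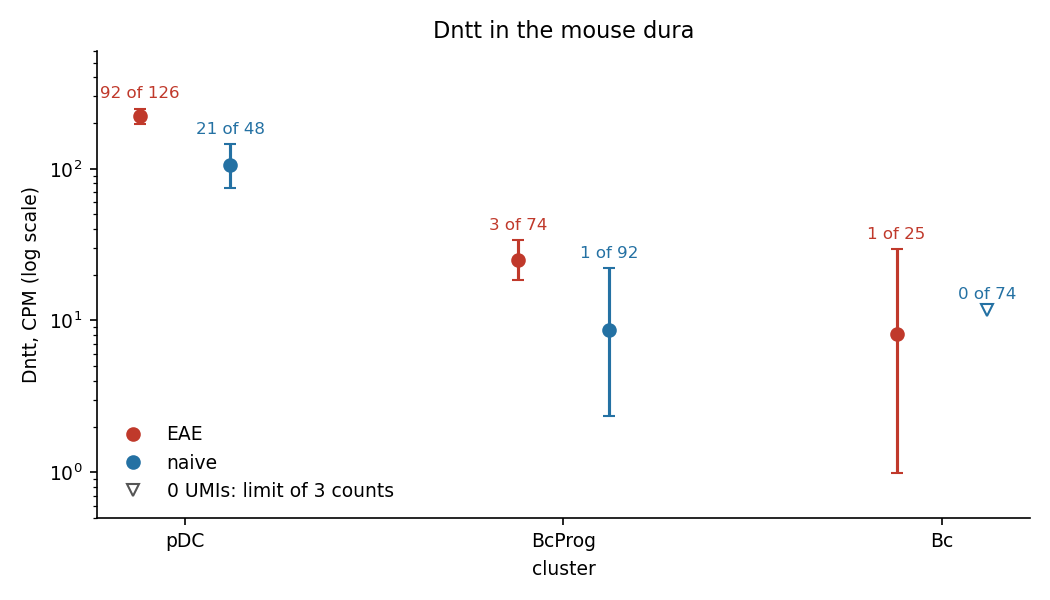
Dntt in 3 clusters of the mouse dura, EAE left of naive, in CPM on a log scale with 95% counting intervals; numbers give the cells with at least 1 UMI, and the open triangle is the limit of 3 counts for 0 UMIs. pDC have the highest level in both conditions (222 CPM in EAE, 106 CPM in naive).

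Genes with the most similar pattern were looked up over all clusters with 50 or more cells. In rat, over 42 groups and 11203 genes, those nearest the summed surrogate light chain genes were Dlk1 (Pearson r = 0.854), Egfl6 (0.844), U2surp (0.806), Padi3 (0.791) and Tfdp2 (0.783). Nearest the recombination genes were Egfl6 (0.769), Rpl3l (0.760), Padi3 (0.755), Cacybp (0.725) and Polr2g (0.724). Of these 8 genes, all had their highest and second highest level in dural Bc1 and Bc2. Dlk1 had 123 CPM in Bc2 and 113 CPM in Bc1, and Egfl6 had 54.4 and 52.4 CPM. In mouse, over 29 groups and 11840 genes, the nearest to the surrogate light chain genes were Mtfr2 (0.748), Uchl1 (0.699), Kif18b (0.679), Rsph9 (0.669) and Chek1 (0.661), each highest in naive BcProg. Nearest to the recombination genes, a sum led by Dntt of pDC, were Cdh5 (0.850), Pir (0.847), Msh5 (0.777), Gria3 (0.772) and Pdzd4 (0.770). Genes picked for likeness to a sum tend to be highest where that sum is, so their top groups add no further result. The groups share libraries and differ in depth, and the values are a description over groups. No gene was among the nearest in both species.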

How the data were processed

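The deposited matrices hold UMI counts per gene and cell barcode, for which the submitters' processing notes name Cell Ranger 3.1.0 and, as genome builds, mm10 for mouse and Rnor_6.0 for rat; per the file headers, the rat matrices name version 3.0.2 and the mouse matrices 3.1.0. Cluster names are those of the deposited annotation. Of 10 samples, 8 are expression libraries and 2 are tables of assembled BCR chains. The 7 members, the comparisons and the gene lists were chosen with earlier results of these data known.

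Counts were summed per cluster and library and divided by all UMIs of those cells (CPM). Intervals at 95% are exact Poisson for CPM, exact conditional binomial for ratios and Clopper-Pearson for shares, and cover counting error only. With 1 pooled library per group no test was made. A fold against 0 UMIs was computed against 3 counts. Background counts are genes with 20 or more UMIs over both sides and a ratio of at least 4. B cell markers were Cd79a, Cd79b, Ms4a1 and Ebf1, cycling cells had 2 or more UMIs of the cell cycle list, and shares were thinned to 500 (rat) or 1000 (mouse) UMIs. No cell was filtered beyond the deposited matrices, and no doublet caller was run. Per list and comparison, the 3 genes with the largest log2 ratio could be named, besides the members and genes that split cells. Similar genes were ranked by correlation of log2(CPM + 1). The fits of the alternatives used edgeR 4.0.16 (TMM factors only) in R 4.3.3, and Python 3.11.15 with numpy 2.4.6, scipy 1.17.1 and pandas 2.3.3. The calculations were tested on simulated data. The pDC comparison, the one without a single EAE Bc cell, the minimum of 10 B cell marker UMIs and the comparison of cycling cells without a cluster were added after the data were seen.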

Additional observations from a re-analysis of the deposited data

Results flagged for a closer look

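These signals lie in barcodes that the deposited annotation gives no cluster, above the limit that a count of 0 allows. Rat dural barcodes without a cluster held 1478 Igll1, 285 Vpreb1 and 270 Vpreb2 UMIs, nearly all in barcodes with B cell markers. Rat CNS barcodes without a cluster held 18 Igll1 UMIs, all in 1 cell. EAE dural barcodes without a cluster held 349 Dntt UMIs, 273 of them in barcodes with 2 or more Siglech UMIs. Naive dural barcodes without a cluster held 73 Vpreb3 UMIs, 65 of them in 1 cell.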

How the results depend on the processing

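Results were recomputed with other scalings (TMM, median-ratio), each cell weighted equally, thinned cells, only cells with B cell markers and only naive cells at EAE depth. They were also recomputed without the deepest cells or those with 5 or more other-type UMIs. Of the values, 90 stayed within the counting interval of the main value, or close to it for counts of genes. Such a value could still change sign where the interval held both directions. Another 42 left that range, many of them without a change of direction. The remaining 6 reversed a direction that the main interval had set. The last filter gave values in the rat comparisons only. No paired analysis was possible because each group is 1 library. Values below are log2 ratios unless named otherwise, and the cause of each shift was not tested.

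In EAE over naive BcProg, the recombination genes (-2.35) gave 0.95 over cells with at least 2 B cell marker UMIs, 1.70 with at least 10 and -1.21 at matched depth. The surrogate light chain genes (-1.76) gave 1.65 with at least 2 marker UMIs, 2.40 with at least 10, 0.27 with equal weights, 0.27 thinned, -1.35 without the deepest 5% of cells and -2.42 at matched depth. Vpreb3 (-4.19) gave -3.86 with TMM, -3.83 with median-ratio factors, -0.81 with at least 2 marker UMIs, -0.059 with at least 10 and -3.76 at matched depth. In EAE over naive Bc, naive cells had 0 UMIs of both sums, so the values are lower bounds against 3 counts: at least 0.47 for the recombination genes, -1.88 at matched depth, where the bound is below 0 and gives no direction, and at least 4.55 for the surrogate light chain genes, 2.21 at matched depth and 3.26 thinned. Vpreb3 (-0.86) gave -0.095 at matched depth and -2.09 without 1 cell. In dural Bc2 over Bc1, equal weights and thinning gave 1.63 for the recombination genes (1.17) and 4.15 for the surrogate light chain genes (3.61). With 5 cell cycle UMIs as the minimum, the cycling ratio of the surrogate light chain genes in Bc2 (-2.66) was -2.36.

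The shares of cells with any of the 6 genes at the thinned depth changed without thinning and at the greater depth to 23.7% and 22.2% for dural Bc1 (14.8%), 71.4% and 55.8% for dural Bc2 (47.1%), and 42.4% and 32.6% for naive BcProg (19.2%). For blood Bc1 (0.413%) the unthinned share was 1.22%. Counts of genes past 4-fold depended on the minimum of 20 UMIs. Without it and with 50 UMIs, dura over blood gave 1726 and 162 higher genes (290), CSF over blood 3112 and 90 (158), Bc2 over Bc1 523 and 198 higher (332) and 328 and 44 lower (114), and EAE over naive Bc 373 and 32 higher (91) and 343 and 25 lower (93), or 56 lower with TMM. With 50 UMIs, dura over blood gave 231 lower genes (369), and EAE over naive BcProg 276 higher (418) and 226 lower (444), or 2180 lower without a minimum. TMM shifted all genes by 0.33 in BcProg, 0.22 in Bc, 0.20 in CSF over blood and -0.17 in dura over blood. Depth limits what the small clusters show: 3 counts are 36.4 CPM in the 5 EAE BcProg cells with at least 10 marker UMIs, and EAE has no annotated cell under 5722 UMIs.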
